A study of Mus musculus with 6 samples.

Results

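The genes described here are 10 markers of mural cells, the pericytes and vascular smooth muscle cells that surround the vessels of the brain, taken by gene name from a table of 56748 genes. Of these, 7 are mainly used as pericyte markers (Pdgfrb, Rgs5, Kcnj8, Abcc9, Vtn, Notch3 and Anpep) and 3 encode contractile proteins of smooth muscle (Acta2, Tagln and Myh11). They were measured by RNA sequencing in 6 libraries of mouse brain, which the series describes as infarcted cortex at day 3, with 3 libraries from mice given PLEA nanoparticles and 3 from mice given saline. All mice were male, wild-type and C57, and no age is given in the sources used here. Every group had a photothrombotic stroke, a clot made by light in vessels of the left hemisphere after an intravenous dose of 100 mg/kg of an agent that the labels do not name, under a 532 nm laser of 250 mW and 1.5 mm width for 5 minutes. A tail vein injection of 100 µL of PLEA nanoparticles or saline followed 2 hours later. The labels do not spell out PLEA, and they do not say whether each library stands for its own animal. The p-values therefore describe the spread between these libraries, which may be technical. No tissue without a stroke was analysed here.

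Pericytes sit within the basement membrane of capillaries and help to maintain the blood-brain barrier, while smooth muscle cells ring arteries and arterioles and set their diameter. Endothelial cells keep pericytes in place by secreting PDGF-B, which acts on the receptor PDGFRB, and signal to smooth muscle through Notch ligands and NOTCH3. In ischaemic stroke pericytes are known to constrict capillaries, to die or detach, and to take part in scar formation.

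Promoter sequence shows how the members differ upstream of their starts. RefSeq promoter windows (build GRCm38.p6) were matched for 7 of the 10 genes, with none for Pdgfrb, Tagln and Myh11, and the 250 bases before the start were read. The CArG box, the site bound by serum response factor in contractile genes, was searched in its strict form and with up to 1 of its 6 middle letters being G or C, a pattern that reads alike on both strands. Only Acta2, of the 7 genes, held the second form, at 84 and 34 bases before its start, and none held the strict one. Of 32851 promoter windows of the same length, 8.59% held the second form and 1.47% the strict one. GTGGGAA, the core bound by the Notch effector RBPJ, was searched on both strands and lay in none of the 7 windows, against 5.42% of all windows. These matches describe letters only. The Acta2 window (chr19:34255374-34255623, minus strand) is shown for its CArG-like boxes, in capitals, the Rgs5 window (chr1:169655251-169655500, plus strand) for the most abundant pericyte gene by CPM, and those of Kcnj8 (chr6:142571615-142571864, minus strand) and Abcc9 (chr6:142702275-142702524, minus strand) for the pair that forms a channel and had the same order of libraries. Each is written 5′ to 3′.
Acta2: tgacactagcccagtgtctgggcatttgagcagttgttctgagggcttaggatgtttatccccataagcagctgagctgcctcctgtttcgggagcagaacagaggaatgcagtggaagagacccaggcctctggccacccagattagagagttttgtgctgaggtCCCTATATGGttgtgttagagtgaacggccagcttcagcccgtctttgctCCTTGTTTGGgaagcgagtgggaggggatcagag
Rgs5: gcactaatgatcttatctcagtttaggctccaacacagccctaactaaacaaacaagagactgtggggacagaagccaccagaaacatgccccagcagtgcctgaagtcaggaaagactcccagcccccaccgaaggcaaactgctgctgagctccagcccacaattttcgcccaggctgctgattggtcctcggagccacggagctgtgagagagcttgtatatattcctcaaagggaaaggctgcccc
Kcnj8: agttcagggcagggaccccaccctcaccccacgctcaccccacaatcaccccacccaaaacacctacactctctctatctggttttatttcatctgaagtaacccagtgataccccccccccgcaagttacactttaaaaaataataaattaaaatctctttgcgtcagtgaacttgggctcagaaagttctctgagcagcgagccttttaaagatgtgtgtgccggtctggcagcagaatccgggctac
Abcc9: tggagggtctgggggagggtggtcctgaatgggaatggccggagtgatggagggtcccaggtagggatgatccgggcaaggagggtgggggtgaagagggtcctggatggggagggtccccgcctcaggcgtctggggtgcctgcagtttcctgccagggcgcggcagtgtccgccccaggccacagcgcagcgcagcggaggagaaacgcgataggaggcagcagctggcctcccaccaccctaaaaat

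Library totals ranged from 17357781 to 17484650 counts in PLEA and from 16810448 to 17516434 counts in saline. Levels are given as CPM, the count scaled to a common library size with its TMM factor. The edgeR quasi-likelihood test was fitted to 17584 genes, and it called 0 genes at an adjusted p under 0.05 in either direction (0% of those tested). At an unadjusted p under 0.05 it had 401 genes higher and 630 lower in PLEA, and at an adjusted p under 0.05 DESeq2 had 4 higher (0.0227% of genes) and 37 lower (0.21%), no member among them. As a check for neural tissue only, not for cortex or infarct, 8 neuronal marker genes were summed. They reached 5988 to 7478 CPM in PLEA and 5896 to 7281 CPM in saline. Markers from outside the cortex were uneven, however. The 9 striatal markers summed to 1046, 2248 and 1946 CPM in PLEA replicates 1 to 3 and to 968, 240 and 2283 CPM in saline replicates 1 to 3. Slc17a6, a glutamate transporter gene best known from subcortical neurons, was at 22.4, 37.8 and 22.9 CPM in PLEA and 23.3, 284 and 29.4 CPM in saline. The part of this unevenness in the values of the mural genes was not tested.

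Pericyte genes were on the lower side in PLEA, and none of the 10 genes passed the test. The count filter left 9 genes, without Tagln, and all 9 had a log2 fold change below 0, as had 51% of all genes tested. Their median log2 fold change was -0.37, against -0.01 over all genes tested, and that of the 7 pericyte genes was -0.38. At an unadjusted p under 0.05, 3 of the 9 were lower (Anpep, Rgs5 and Vtn) and 0 were higher, against 3.58% of all genes lower and 2.28% higher. The PLEA libraries all lay below the saline libraries for 2 of the 9, Anpep and Pdgfrb, against 5.54% of all genes tested, and the groups overlapped for the other 7 (5.16% of all genes lay wholly above saline). In tissue RNA, fewer cells of a type and less RNA per cell cannot be told apart.

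**Figure D1:**
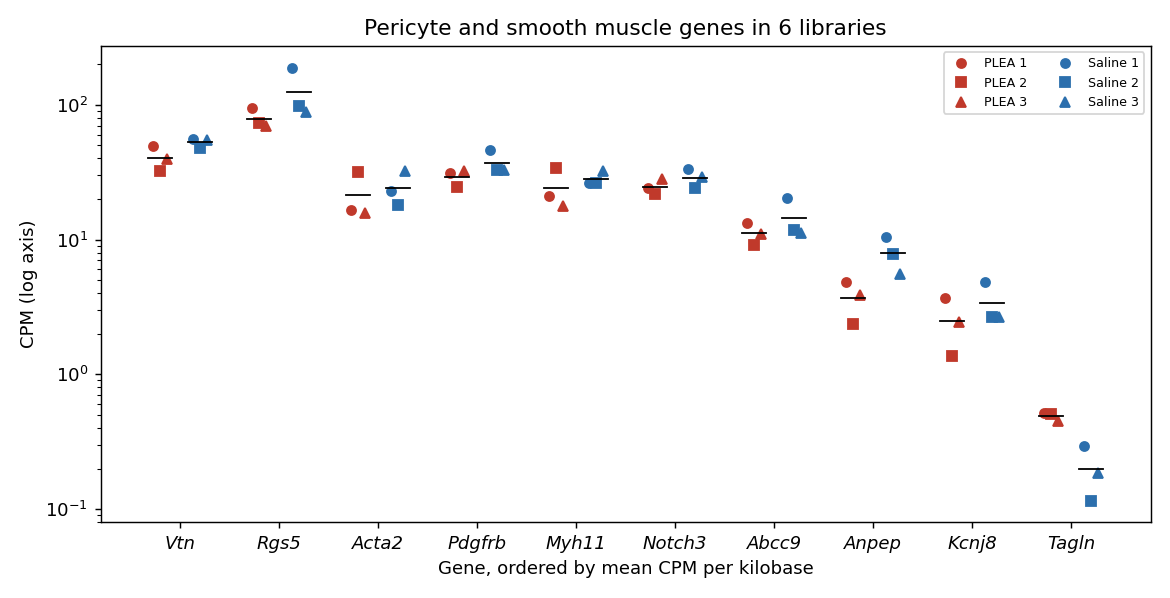
Level of each of the 10 genes in every library, in CPM on a log axis, ordered by mean CPM per kilobase of gene length. Red points are the 3 PLEA libraries, blue points the 3 saline libraries, and black bars the group means; saline replicate 1 is the highest library for all 7 pericyte genes, and Tagln lies under 1 CPM throughout.

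Pdgfrb, the receptor through which endothelial PDGF-B recruits and keeps pericytes, was at 31.2, 24.5 and 32.2 CPM in PLEA replicates 1 to 3 and 46.3, 32.5 and 32.8 CPM in saline replicates 1 to 3. The groups did not overlap, but PLEA replicate 3 and saline replicate 2 were nearly level. Mean levels were 29.3 ± 4.20 CPM in PLEA and 37.2 ± 7.86 CPM in saline (SD, n = 3 each), a log2 fold change of -0.35 (SE 0.18, edgeR adjusted p = 0.818). With 1 library left out the log2 fold change ranged from -0.44 without saline replicate 3 to -0.15 without saline replicate 1. In the deposited table Pdgfrb spans bases 61178222 to 61218133 of chromosome 18.

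Notch3, the receptor that carries Notch signals in mural cells, was at 24.0, 21.6 and 28.2 CPM in PLEA and 33.5, 24.1 and 29.0 CPM in saline. The ranges overlapped, with saline replicate 2 nearly level with PLEA replicate 1. Its log2 fold change of -0.23 (SE 0.16, edgeR adjusted p = 0.844) was the smallest in size among the pericyte genes with all libraries in. With 1 library left out it ranged from -0.35 without saline replicate 2 to -0.10 without saline replicate 1. The span of Notch3 (chromosome 17, bases 32339794 to 32385826) shares 21024 bases with Gm17276 on the opposite strand, which had 74, 135 and 133 counts in PLEA and 62, 115 and 95 counts in saline. This overlap is between whole gene spans, and overlap of exons was not examined. The strand setting of the counting is not given in the sources used here, and any mixing of reads within this pair was not tested.

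Rgs5, a regulator that shortens signalling by G protein-coupled receptors and is among the most used pericyte markers, was at 94.2, 73.2 and 69.9 CPM in PLEA and 189, 97.9 and 87.8 CPM in saline. Saline replicate 1 stood well above the other 5 libraries, and PLEA replicate 1 lay above saline replicate 3. The log2 fold change was -0.66 (SE 0.28, edgeR adjusted p = 0.818). With 1 library left out it ranged from -0.87 without saline replicate 3 to -0.22 without saline replicate 1. Rgs5 spans bases 169483070 to 169523382 of chromosome 1 in the deposited table. Counts per kilobase of Rgs5 were 3.64, 3.60 and 2.62 times those of Pdgfrb in PLEA and 4.92, 3.63 and 3.23 times in saline, so that saline replicate 1 was high for Rgs5 also in relation to Pdgfrb.

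Kcnj8 and Abcc9 encode Kir6.1 and SUR2, the pore and the regulatory subunit of the ATP-sensitive potassium channel of mural cells, which links their membrane potential to energy supply. They are neighbours on chromosome 6, with 16247 bases and 0 annotated genes between them in the deposited table (Kcnj8 at bases 142510563 to 142517340, Abcc9 at 142533588 to 142648041). Kcnj8 was at 3.70, 1.36 and 2.46 CPM in PLEA and 4.87, 2.66 and 2.65 CPM in saline. Abcc9 was at 13.3, 9.07 and 11.0 CPM in PLEA and 20.4, 11.7 and 11.1 CPM in saline. For both genes PLEA replicate 2 was lowest, saline replicate 1 highest and PLEA replicate 1 second highest, so the groups overlapped.

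The log2 fold changes were -0.44 for Kcnj8 (SE 0.42, edgeR adjusted p = 0.872) and -0.37 for Abcc9 (SE 0.27, edgeR adjusted p = 0.844). Without saline replicate 1 they were -0.07 and -0.03, the nearest to 0 of the fits that left out 1 library. The farthest were -0.84 for Kcnj8 without PLEA replicate 1 and -0.54 for Abcc9 without saline replicate 3. Kcnj8 had as few as 24 counts in a library, a counting error of 20.4%, against 7.91% at the 160 counts that were the lowest for Abcc9. Per kilobase, Kcnj8 counts were 0.914, 0.493 and 0.734 times those of Abcc9 in PLEA and 0.784, 0.748 and 0.781 times in saline. The ratio was even across the saline libraries and spread on either side of them in PLEA. It rests on 64, 24 and 44 counts of Kcnj8 in PLEA and 83, 46 and 43 in saline, so counting error enters each ratio. The difference in spread was not tested. Kcnj11 and Abcc8, which encode the channel's relatives in neurons and endocrine cells, did not pass the test: the log2 fold change was -0.04 for Kcnj11 (SE 0.22) and -0.07 for Abcc8 (SE 0.16).

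Vtn encodes vitronectin, an adhesive plasma and matrix protein that brain pericytes make and that binds integrins. It was at 49.4, 32.5 and 39.4 CPM in PLEA and 55.4, 47.9 and 54.4 CPM in saline. Only PLEA replicate 1 reached into the saline range. The log2 fold change was -0.38 (SE 0.16, edgeR adjusted p = 0.818), with leave-one-out values from -0.56 without PLEA replicate 1 to -0.24 without PLEA replicate 2. Saline replicate 1 was less far above the others here than for Rgs5, and without it the value was -0.33.

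Anpep encodes aminopeptidase N (CD13), a surface peptidase of pericytes that fibroblasts and myeloid cells also carry. It was at 4.85, 2.38 and 3.86 CPM in PLEA and 10.5, 7.86 and 5.54 CPM in saline. The groups did not overlap, and over all 6 libraries the highest, saline replicate 1, was 4.41 times the lowest, PLEA replicate 2. Mean levels were 3.70 ± 1.25 CPM in PLEA and 7.97 ± 2.48 CPM in saline (SD, n = 3 each), a log2 fold change of -1.11 (SE 0.33, edgeR adjusted p = 0.818). This was the largest difference among the 9 genes tested, and with 1 library left out it ranged from -1.37 to -0.85. The lowest library held 42 counts of Anpep, a counting error of 15.4%. Anpep spans bases 79471551 to 79510807 of chromosome 7.

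**Figure D2:**
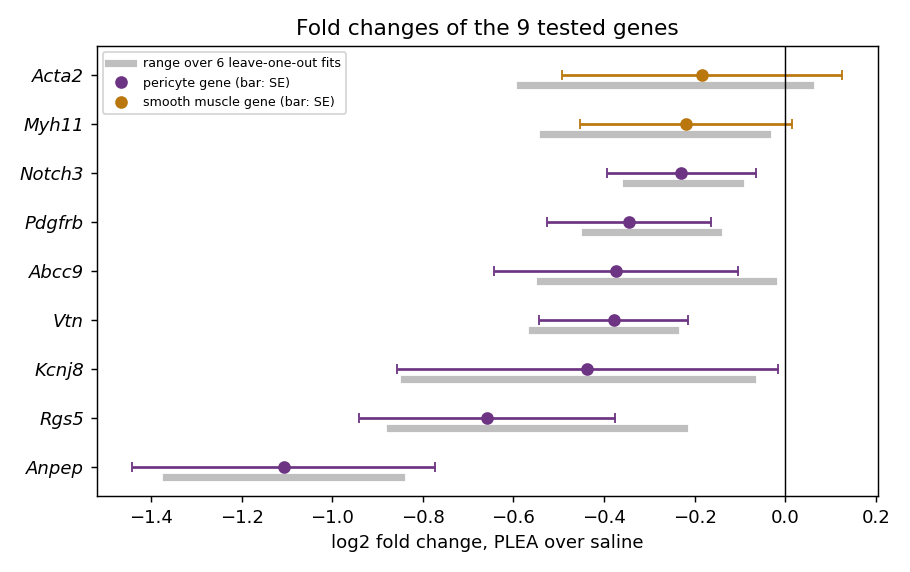
Log2 fold change of PLEA over saline for the 9 tested genes, from edgeR. Points are the fitted values with their standard errors as bars, purple for pericyte and orange for smooth muscle genes, and grey bands span the 6 fits that leave out 1 library; Anpep lies farthest from 0 at -1.11, and the band of Acta2 crosses 0.

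The contractile genes followed another order of libraries. Acta2, the smooth muscle actin of the contractile filament, was at 16.6, 31.8 and 15.8 CPM in PLEA and 22.8, 18.0 and 32.2 CPM in saline. PLEA replicate 2 and saline replicate 3 were high and nearly level, so the groups overlapped from end to end. The log2 fold change was -0.18 (SE 0.31, edgeR adjusted p = 0.928). It was -0.58 without PLEA replicate 2 and turned to 0.06 without saline replicate 3, so its direction rests on single libraries. Acta2 lies at bases 34218490 to 34232990 of chromosome 19. It is nearly identical in coding sequence to other muscle actins, and how reads shared among them were counted is not given in the sources used here.

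Myh11, the smooth muscle myosin heavy chain, was at 21.1, 33.9 and 17.9 CPM in PLEA and 26.4, 26.1 and 32.3 CPM in saline. Again PLEA replicate 2 and saline replicate 3 were the upper pair, and PLEA replicates 1 and 3 lay below all saline libraries. The log2 fold change was -0.22 (SE 0.23, edgeR adjusted p = 0.880), or -0.54 without PLEA replicate 2 and -0.04 without PLEA replicate 3. Per kilobase, Acta2 counts were 2.72, 3.25 and 3.06 times those of Myh11 in PLEA and 2.98, 2.39 and 3.45 times in saline. Myh11 spans bases 14012399 to 14109236 of chromosome 16.

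Tagln encodes transgelin (SM22), an actin-binding protein of smooth muscle. It had 9, 9 and 8 counts in PLEA and 5, 2 and 3 counts in saline, all under 1 CPM, and so failed the count filter. The PLEA counts were all above the saline counts, and summed to 26 (exact 95% Poisson interval 17.0 to 38.1) against 10 (4.80 to 18.4). These intervals cover counting error only, and their overlap between 17.0 and 18.4 is not a test of the difference. In an edgeR fit without a filter, its log2 fold change was 1.27 (adjusted p = 0.796), where 0.0205% of all genes were called higher and 0.0907% lower. Tagln (chromosome 9, bases 45840917 to 45847356) shares 108 bases with Pcsk7 and 3627 bases with Gm48529, both on the opposite strand. Pcsk7 had 478, 576 and 610 counts in PLEA and 423, 367 and 410 counts in saline, and Gm48529 had 6, 27 and 12 counts in PLEA and 6, 11 and 12 counts in saline. The share of Tagln counts that came from these neighbours was not tested.

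Levels can be set against each other only per length, here as CPM per kilobase of the deposited gene length, averaged over the 6 libraries. Vtn at 22.9 (range over libraries 16.0 to 27.3) and Rgs5 at 22.4 (15.4 to 41.5) led, and their ranges overlapped. Acta2 followed at 10.4 (7.20 to 14.7) and Pdgfrb at 6.07 (4.47 to 8.45), which also overlapped. Myh11 at 3.46 and Notch3 at 3.30 were level within their spread. Abcc9 at 1.52, Anpep at 1.41 and Kcnj8 at 1.16 formed a lower trio with overlapping ranges, and Tagln was last at 0.174 (0.0582 to 0.262), below the lowest Kcnj8 library at 0.534. The ranges of Rgs5 and Acta2 did not overlap, nor did those of Notch3 and Abcc9, while the lowest Pdgfrb library (4.47) and the highest Myh11 library (4.46) were almost level.

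Across libraries the 7 pericyte genes shared a pattern. Saline replicate 1 was the highest library for all 7, as it was for 21.3% of all genes tested, and PLEA replicate 2 was the lowest for 6 of 7, against 19.1% of all genes. The exception was Rgs5, lowest in PLEA replicate 3. Centred on each gene's mean over the 6 libraries, the median of the pericyte genes on the log2 CPM scale was -0.03, -0.44 and -0.16 in PLEA replicates 1 to 3 and 0.72, -0.01 and 0.01 in saline replicates 1 to 3. Saline replicates 2 and 3 thus lay near the mean, as did PLEA replicate 1. Without saline replicate 1 the median log2 fold change of the 7 genes was -0.15, and without PLEA replicate 2 it was -0.24. Leaving out either of these extreme libraries was bound to lessen the difference. With any other library left out, the median lay between -0.56 (without PLEA replicate 1) and -0.42 (without PLEA replicate 3). All 7 genes stayed below 0 in each of the 6 fits that left out 1 library, as did 26.5% of all genes.

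For Acta2 and Myh11 the centred median was -0.34, 0.47 and -0.49 in PLEA replicates 1 to 3 and 0.05, -0.13 and 0.44 in saline replicates 1 to 3. PLEA replicate 2, the lowest library for most pericyte genes, was thus the highest for Myh11, as for 19.6% of all genes, and the second highest for Acta2. The summed CPM of Acta2 and Myh11 was 0.171, 0.399 and 0.180 times that of the pericyte genes in PLEA and 0.137, 0.196 and 0.289 times in saline. This ratio varied within each group by more than the groups differed, with means of 0.250 ± 0.129 in PLEA and 0.207 ± 0.0767 in saline (SD, n = 3 each).

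**Figure D3:**
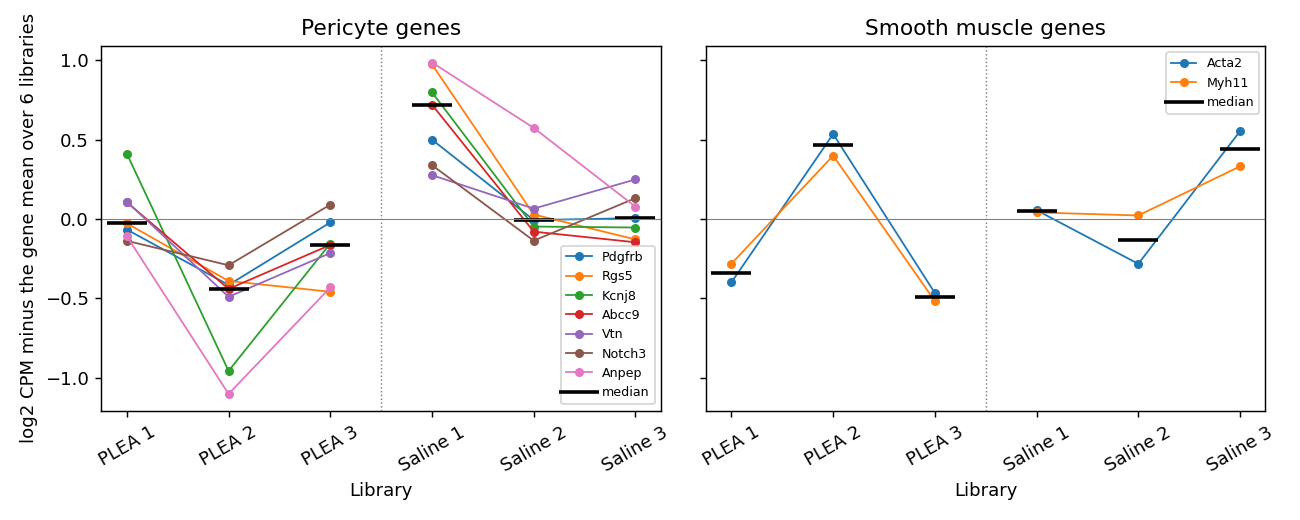
Log2 CPM of each tested gene minus its mean over the 6 libraries, for 7 pericyte genes (left) and 2 smooth muscle genes (right). Lines only join the points of a gene within a group, and black bars are the medians; the pericyte median is highest in saline replicate 1 at 0.72 and lowest in PLEA replicate 2 at -0.44, where the smooth muscle median is at 0.47.

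Likeness to these 2 median patterns was measured as the root mean square distance in centred log2 CPM over the 6 libraries, among 13135 other genes whose average log2 CPM reached 1. The nearest to the pericyte median were Rgs10 at 0.038, Tpt1 and Npc2 at 0.064, Wipf1 at 0.066 and Ehd4 at 0.067. All 5 were nearer than the nearest member, Abcc9 at 0.088. They are the smallest distances among 13135 genes and Abcc9 the smallest among 7, so the sizes of the pools alone favour this order. Anpep, the farthest pericyte gene, was at 0.394. Nearest to the smooth muscle median were Myom1 at 0.140, the noncoding RNA Epb41l4aos at 0.147, Asb18 at 0.153, Atp6ap1l at 0.157 and Pkia at 0.159, while Acta2 and Myh11, which set this median, were each at 0.086.

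Other genes used as pericyte markers gave a divided picture. Of 17 such genes 16 were tested, 0 passed, 12 had a log2 fold change below 0, and the median was -0.25. The PLEA libraries all lay below saline for 5 of the 16, Ednra, Mcam, Atp13a5, Tbx18 and Ifitm1, against 5.54% of all genes tested. With 1 library left out the median of the 16 ranged from -0.39 without PLEA replicate 3 to -0.12 without saline replicate 1. Ednra, the endothelin A receptor that mediates constriction, was at 3.24, 3.06 and 3.19 CPM in PLEA and 6.92, 5.32 and 5.97 CPM in saline (log2 fold change -0.94, SE 0.22, edgeR adjusted p = 0.818). The groups did not overlap, and with 1 library left out the value ranged from -1.03 to -0.83. At this low level the closeness of the PLEA values to each other was not set against counting error.

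Mcam (CD146), an adhesion molecule of vessel walls, had a log2 fold change of -0.61 (SE 0.17), Atp13a5, a transporter-like ATPase that marks brain pericytes, -0.51 (SE 0.16) and Tbx18, a mural transcription factor, -1.05 (SE 0.35), each with edgeR adjusted p = 0.818. Cspg4, the NG2 proteoglycan shared with oligodendrocyte precursors, lay at 28.3 ± 3.41 CPM in PLEA and 27.3 ± 2.68 CPM in saline (SD, n = 3 each), a log2 fold change of 0.05 (SE 0.14). Gucy1b1, a subunit of the nitric oxide receptor that neurons also express, had a log2 fold change of 0.11 (SE 0.17). Cspg4, Gucy1b1, Ifitm1 and, among the lists that follow, Actg2, Ly6c1, Slco1a4 and Esam were named after their values were seen.

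Among 16 other contractile or smooth muscle genes, 14 were tested, 0 passed and 11 had a log2 fold change below 0, with a median of -0.17. The PLEA libraries all lay below saline for 1 of the 14, against 5.54% of all genes tested. This was Ppp1r14a, an inhibitor of myosin phosphatase (log2 fold change -0.64, SE 0.21, edgeR adjusted p = 0.818). Mylk, the myosin light chain kinase, had -0.41 (SE 0.21), the tropomyosin gene Tpm2 -0.42 (SE 0.24) and Srf, which encodes serum response factor, 0.21 (SE 0.14). Actg2, a further muscle actin that was too low to test, had 2, 23 and 1 counts in PLEA and 5, 0 and 7 counts in saline, so PLEA replicate 2 was its highest library, as for Myh11.

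Ligands and partners of the members did not pass the test either. Pdgfb, the ligand of PDGFRB, had a log2 fold change of 0.28 (SE 0.21), Pdgfd -0.46 (SE 0.29), Pdgfc 0.12 (SE 0.24) and Pdgfra, the other receptor, -0.04 (SE 0.11), and the median of the 5 PDGF genes was -0.04. Of 13 Notch genes 10 were below 0 with a median of -0.22, including the receptor Notch2 at -0.51 (SE 0.14), the target Hes1 at -0.60 (SE 0.25), the ligand Jag1 at -0.36 (SE 0.18) and the endothelial receptor Notch4 at 0.46 (SE 0.27). The 5 integrin genes for subunits that bind vitronectin were all below 0, with a median of -0.24, among them Itgb5 at -0.54 (SE 0.41) and Itgb1 at -0.43 (SE 0.22). Of the relatives of Rgs5, 6 were tested with a median of -0.14, with Rgs3 at -0.61 (SE 0.17) and Rgs2 at 0.33 (SE 0.20). These medians are small against the effect of single libraries: without saline replicate 1 the integrin median was -0.12, with Itgb5 and Itgb3 each turned to 0.04, and without PLEA replicate 2 the PDGF median was 0.10 and that of the Rgs5 relatives 0.03.

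Markers of several other cell types had the same highest and lowest libraries as most pericyte genes. Of 12 endothelial markers 9 were below 0 with a median log2 fold change of -0.42, and their summed level was 261 to 325 CPM in PLEA and 289 to 458 CPM in saline. The endothelial cadherin Cdh5 had a log2 fold change of -0.86 (SE 0.30), Emcn -0.75 (SE 0.27) and the VEGF receptors Kdr and Flt1 -0.75 (SE 0.28) and -0.55 (SE 0.22). For these 4 of the 12 the PLEA libraries all lay below saline, against 5.54% of all genes tested. The 3 above 0 were Ly6c1 at 0.44 (SE 0.21), Slco1a4, a transporter of brain endothelium, at 0.08 (SE 0.16) and Esam at 0.03 (SE 0.23). The summed CPM of the 7 pericyte genes was 0.690, 0.631 and 0.576 times that of the endothelial markers in PLEA and 0.786, 0.776 and 0.670 times in saline. PLEA replicate 1 lay above saline replicate 3 in this ratio. Without Rgs5 the ratio was 0.395, 0.350 and 0.361 in PLEA and 0.374, 0.438 and 0.406 in saline.

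Fibroblast and meninges markers were below 0 for 10 of 10 genes, with a median log2 fold change of -1.36 and summed levels of 55.5 to 75.0 CPM in PLEA and 121 to 177 CPM in saline, and 9 of the 10 lay wholly below saline, against 5.54% of all genes tested. Microglia markers were below 0 for 8 of 8 (median -0.74, 138 to 398 CPM in PLEA and 263 to 755 CPM in saline), monocyte and macrophage markers for 5 of 5 tested (median -1.04, 27.4 to 68.1 CPM in PLEA and 33.5 to 183 CPM in saline) and astrocyte markers for 8 of 8 (median -0.42, 3371 to 4493 CPM in PLEA and 4133 to 6978 CPM in saline). Those wholly below saline were 1 of the 8 microglia, 0 of the 5 monocyte and macrophage and 2 of the 8 astrocyte markers. The sums of the fibroblast, microglia, macrophage, astrocyte and endothelial lists all peaked in saline replicate 1 and were smallest in PLEA replicate 2. Without saline replicate 1 the medians were -0.05 for endothelial, -1.19 for fibroblast and meninges, -0.15 for microglia, -0.42 for monocyte and macrophage and -0.16 for astrocyte markers, an alternative chosen after seeing the data. None of these markers was at 0 in all libraries. Their part in the values of the pericyte genes was not tested.

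Remaining marker lists had other orders of libraries. Median log2 fold changes were -0.21 for oligodendrocyte, 0.02 for neuronal, 0.51 for striatal and 1.07 for choroid plexus markers. Without saline replicate 2, which had the lowest sum of striatal markers, the striatal median was 0.11, and without saline replicate 3 it was 1.42. The choroid plexus markers summed to 11.0, 36.7 and 332 CPM in PLEA and to 7.63, 9.71 and 24.8 CPM in saline, and without PLEA replicate 3 their median was 0.09. The 8 neutrophil genes all failed the count filter. Their sum was 0.227 to 0.447 CPM in PLEA and 1.115, 0.925 and 17.5 CPM in saline replicates 1 to 3, so saline replicate 3 alone was high. No gene of any list passed the edgeR test over all genes.

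**Figure D4:**
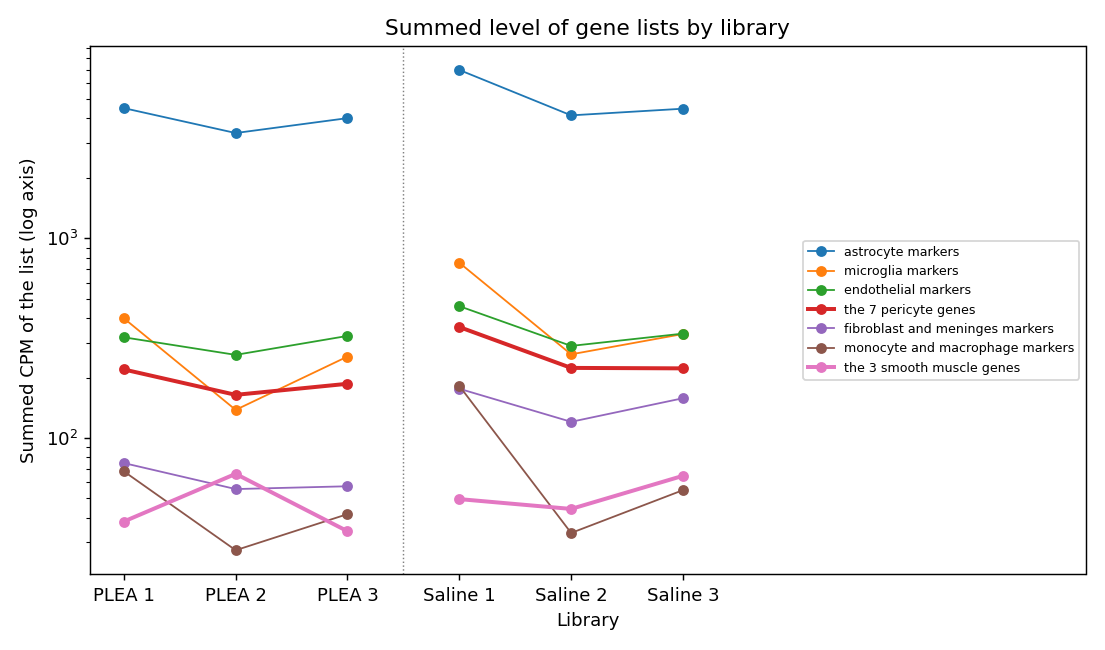
Summed CPM of gene lists in each library on a log axis, with the 7 pericyte and the 3 smooth muscle genes as thick lines. Lines only join the points of a list within a group; the pericyte sum is 165 to 221 CPM in PLEA and 223 to 360 CPM in saline, and is highest in saline replicate 1 together with the endothelial, fibroblast, microglia, macrophage and astrocyte sums.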

How the data were processed

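The authors deposited 1 table of whole-number read counts per gene, not normalized, with a column per library and the gene length in bases. The aligner and the counter, with its use of strand, are details not given in the sources used here. Builds named in the submitters' processing notes are GRCm38 and mm10, but of 52036 genes off the mitochondrial chromosome shared with GENCODE M21 (GRCm38) only 2.76% had the same coordinates, so the deposited coordinates are printed with no build. Libraries were grouped by title, and no pair agreed within sampling noise.

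Counts were fitted with edgeR 4.0.16 in R 4.3.3 (filterByExpr with a minimum count of 10, TMM factors, quasi-likelihood F test on group alone), and p-values were adjusted by Benjamini-Hochberg over 17584 genes at a threshold of 0.05. Standard errors divide the log2 fold change by the root of its F value, and log2 CPM used a prior count of 2. Alternatives were DESeq2 1.42.0, limma 3.58.1 (voom), other scaling factors, other filters, a replicate block and leaving out each library. The members and lists were chosen with earlier results of these data known, so no list was tested. All 10 members are described. Of each other list up to 4 genes with the smallest p were eligible to be named, and 5 genes per likeness ranking.

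The fit was tested on simulated data with known changes. Totals were 16810448 to 17516434 counts per library, and a gene with 24 counts has a counting error of 20.4%.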

Additional observations from a re-analysis of the deposited data

How the results depend on the processing

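No member passed the threshold under any of the 13 alternatives, where the smallest edgeR or DESeq2 adjusted p of a member was 0.241. Of 117 values of the 9 tested members under these alternatives, 116 stayed below 0. These are refits of the same genes on the same or nearly the same libraries, so they are not independent and the count is no test of direction. In the 6 fits that left out 1 library, 8 of the 9 members were always below 0, as were 26.5% of all genes. Acta2 ranged from -0.585 without PLEA replicate 2 to 0.055 without saline replicate 3. Tagln, outside these 117, had a value only without a filter, and it was above 0 at 1.27. The median log2 fold change of the 9 tested genes, -0.37, lay between -0.54 and -0.22 when 1 library was left out, with -0.22 without saline replicate 1 and -0.25 without PLEA replicate 2. Against 0 calls over all genes, there were 4 higher and 37 lower with DESeq2, and 7 higher and 31 lower in edgeR when no filter was applied; the cause was not tested. Fits without 1 library had 0 genes higher and 0 to 1 lower. With a replicate block 0 genes were called and the median was -0.34. Whether the numbers 1 to 3 pair the libraries could not be settled, since deviations were taken from means of only 3 libraries. Correlations of these deviations across genes were 0.37, 0.17 and -0.02 for same-numbered libraries. For differently numbered libraries they ranged from -0.36 to 0.23. Kcnj8 and Tagln are limited by depth, with as few as 24 and 2 counts in a library.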
